A study of Mus musculus with 15 samples.

Results

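Ribosome biogenesis genes, 46 in all, were chosen by name as factors that make, modify and assemble ribosomes, and their transcript levels were followed through 8 h of dexamethasone in 3134 and AtT-20 mouse cells. A gene was kept where probesets (the groups of probes that each read 1 stretch of an exon) were assigned to that gene alone, and its level was the median over them after the 15 arrays had been brought to a common distribution. Of the 46, 40 had a value, against 16185 genes in the whole series, and all 40 were among the 9919 genes that passed the filter on dim signal and were tested. Nop56 and Nop58 were found under older symbols. Fbl, Dkc1, Utp18, Wdr43, Wdr75 and Noc2l had no value under their names and were not analysed here. The list was drawn up with changes over time in these arrays known, so the changes over time are a description of its members. The list does not follow the difference between the lines at 0 h or the use of probesets within genes, but both comparisons include 3134 arrays behind those changes and are not free of them.

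Ribosome biogenesis begins in the nucleolus, where RNA polymerase I transcribes the precursor of the ribosomal RNAs. Small nucleolar ribonucleoproteins (snoRNPs) of the box C/D and box H/ACA classes guide methylation and pseudouridylation of that precursor, nucleases and helicases cut and remodel it, and separate sets of assembly factors build the small and the large subunit. The process takes a large share of the energy of a growing cell, and the genes of its factors are known as targets of the transcription factor Myc, which binds the E-box CACGTG together with Max.

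The 3134 line derives by transformation from C127 cells, which came from a mammary tumour of an RIII mouse, and AtT-20 cells, from an LAF1 mouse, are pituitary corticotrophs. Both lines were kept for 48 h in charcoal-treated serum and then received 100 nM dexamethasone, a synthetic glucocorticoid, for 2, 4 or 8 h, or none (0 h). The labels call the 0 h cells untreated in one place and vehicle treated in another, and controls without hormone exist for 0 h only, so hormone and time in culture cannot be told apart. Each group had 2 arrays, except AtT-20 at 8 h with 1, and serial numbers in the titles split the arrays of each line into a low run (replicate 1) and a high run (replicate 2). Whether replicates came from separate cultures is not stated, so a p-value reflects the spread among arrays, which may be technical. Deposited array medians lay between 7.51 and 8.14 (log2) in the low runs and between 6.76 and 7.22 in the high runs. By the highest group mean in a line, corticotroph markers reached the dim-signal threshold of log2 6.59 in AtT-20 for 6 of 6 measured genes and in 3134 for 0 of 6. In 3134, the line labelled mammary adenocarcinoma, 1 of 7 epithelial markers (Krt8, at 6.84 and 6.70 at 0 h) and 6 of 7 mesenchymal markers reached it. In AtT-20 3 of 7 epithelial markers (Krt8, Krt18 and Cldn3) and 1 of 7 mesenchymal markers (Col1a1) reached it. Immune markers reached it for 1 of 5 genes (Cd68) and endothelial markers for 1 of 4 (Cdh5) in 3134, and for none in AtT-20. Fkbp5, a chaperone that glucocorticoids induce in many cells, rose in 3134 by 2.81 ± 0.154 (log2, SE) at 8 h (adjusted p = 2.101e-06). Over 5 genes listed as glucocorticoid-induced, Fkbp5 among them, the median change at 4 h was 2.67 in 3134 and 1.11 in AtT-20. None of these 5 was below 0 in 3134, and 1 was in AtT-20 (Pdk4, which is dim there).

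At 8 h in 3134 most ribosome biogenesis genes stood below their 0 h level. The log2 change from 0 h was below 0 for 36 of 40 genes, with a median of −0.60, or 66.1% of the 0 h level, while the median of all tested genes was −0.01. The changes ran from −1.22 for Gar1 to 0.58 for Npm3. In the limma fit without run, Rpp40, Polr1b, Nop56, Nhp2 and Utp15 fell and no member rose, that is 12.5% of the members lower, where 0.544% of all tested genes were lower and 1.64% higher. With the run as a block, 19 members were lower (47.5%) and 1, Npm3, was higher, where 3.6% of all tested genes were lower and 4.3% higher. Since the list was made with this comparison in view, nothing is read from these shares. Arrays of whole cultures normalised to 1 distribution cannot tell less RNA of a gene in every cell from fewer cells that make it.

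**Figure D1:**
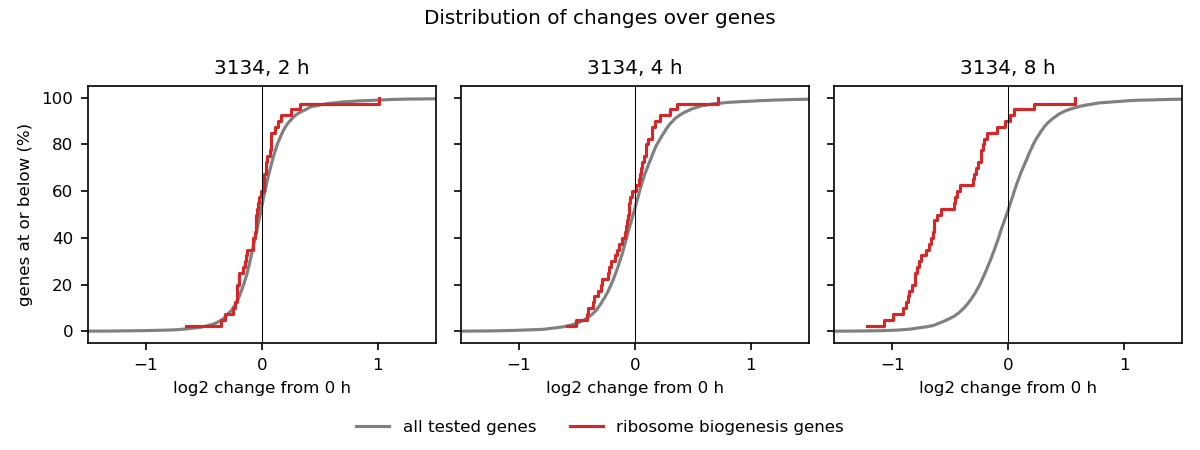
Cumulative share of genes (y axis, percent) at or below each log2 change from 0 h (x axis) in 3134 at 2, 4 and 8 h, for all 9919 tested genes (grey) and the 40 ribosome biogenesis genes (red). The curves lie close together at 2 and 4 h, and at 8 h the red curve is moved to the left, with a median of −0.60 against −0.01.

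The calls of the 5 genes that fell at 8 h without the block were not all kept when any 1 of the 4 arrays compared was left out. Each such fit left 1 array in a group and so had less precision. A lost call therefore does not show that a change rests on the array left out. When the 8 h array of the low run was left out, Rpp40 alone passed, and none passed when the 8 h array of the high run or either 0 h array was left out. When genes were summarised by the mean over probesets, 11 members passed, and without the filter on dim genes 1 passed (Nop56). The share of all tested genes that passed is not set beside these counts, so nothing is read from them. Taken relative to the median of all tested genes, the members' median was −0.58 on the quantile scale and −0.60 on the median-centred and the deposited scale. On the deposited scale the median of all tested genes itself lay at −0.38.

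Earlier times showed little of this. The members' median was −0.04 at 2 h and −0.05 at 4 h, with 24 of 40 genes below 0 at both. No member passed at 2 h (1 had an unadjusted p under 0.05, and limma called 1.23% of all tested genes). None passed at 4 h either (3 had an unadjusted p under 0.05, and 1.91% of all genes were called). With the block, Npm3 was higher at both times and no other member passed, where 1.96% of all tested genes were called higher at 2 h and 3.29% at 4 h. Over the mean of the 3 times no member passed (8 had an unadjusted p under 0.05, and 2.42% of all genes were called). With the block Gar1, Utp15, Polr1b, Nop58 and Nop56 were lower over that mean and Npm3 higher, where 2.52% of all genes were called lower and 4.03% higher. From 4 h to 8 h, 39 of 40 members went down, by a median of −0.45, and limma called none of them, nor any of the 9919 genes (0.0% called; 15 members had an unadjusted p under 0.05). With the block that comparison also called no member (24 at an unadjusted p under 0.05), and 0.111% of all genes. These comparisons share their 0 h or 8 h arrays and are not independent of each other.

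The changes in 3134 were also taken per run. Both runs are among the arrays whose changes were known when the list was drawn up, so their agreement is a description. In the low run the members' median change at 2, 4 and 8 h was −0.15, −0.16 and −0.59, and in the high run it was 0.04, 0.04 and −0.42. At 8 h, 34 of 40 members were lower than at 0 h in both runs, where 34.6% of all tested genes were, and Npm3 and Polr1c were higher in both, where 31.8% of all genes were. Ncl, Nop10, Npm1 and Pes1 went different ways in the 2 runs. Against 4 h, 35 members were lower at 8 h in both runs (26.5% of all tested genes) and 1 was higher in both (26.7%). At 2 h only 12 members were lower and 8 higher in both runs (31.5% and 26.8% of all genes), and at 4 h 15 were lower and 12 higher (34.0% and 30.2%). Over the 4 times the lowest group mean fell at 8 h for 33 of 40 members, against 29.5% of all tested genes. Both 8 h arrays lay below both 0 h arrays for 30 members, against 22.6%, and below all 6 earlier 3134 arrays for 22, against 5.3%. Across the 40 members, which share arrays, the 8 h changes of the 2 runs correlated with r = 0.629, close to the 0.632 across all tested genes.

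**Figure D2:**
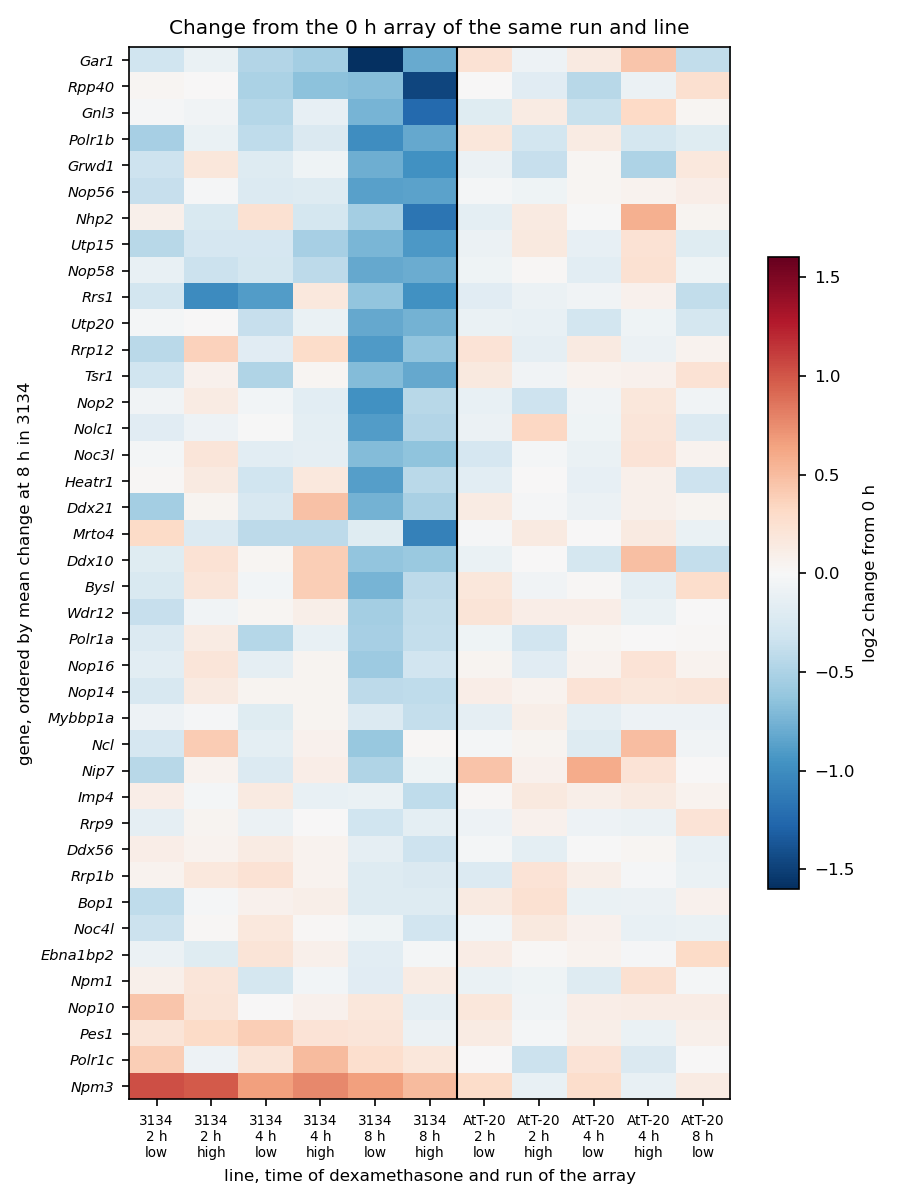
Log2 change of each of the 40 ribosome biogenesis genes (rows, ordered by mean change at 8 h in 3134) from the 0 h array of the same line and run (columns: line, time and low or high run of serial numbers), blue for lower and red for higher. The 2 columns of 3134 at 8 h are blue for 34 genes in both runs, Npm3 is red in all 6 columns of 3134, and the 5 AtT-20 columns are pale.

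In AtT-20 the median change of the members stayed near 0, while single members ran from −0.63 to 0.37 at 8 h. The members' median was −0.003 at 2 h, 0.02 at 4 h and −0.01 at 8 h, when 20 genes were below 0 and 20 above. The 8 h array is of the low run only, and this fit sets it against the 0 h arrays of both runs. Against the 0 h array of its own run the 8 h median was 0.015, with 17 genes below 0 and 23 above. Limma called no member at any time, with or without the block. At 2 and 8 h no member had an unadjusted p under 0.05 in either fit, and at 4 h 1 had one with the block. Of all tested genes, 0.0907% were called at 2 h, 0.171% at 4 h and 0.121% at 8 h (0.323%, 0.857% and 0.444% with the block), so few genes of any kind passed in this line. The mean of 2 and 4 h also called no member, where 0.181% of all genes were called (0.756% with the block, and 1 member at an unadjusted p under 0.05). Lower in both runs were 9 members at 2 h and 5 at 4 h (24.7% and 25.9% of all genes), and higher in both were 6 and 10 (26.1% and 23.7%).

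The difference between the lines in response was also fitted. It is built from the changes over time that were known when the list was drawn up, so it is a description. Over 2 and 4 h, where both lines had 2 arrays per time, the median difference (3134 minus AtT-20) was −0.05 and no member passed (1 at an unadjusted p under 0.05, with 0.645% of all genes called). With the block Npm3 was higher in 3134, by 0.78 (adjusted p = 0.032), where 1.84% of all genes were called higher. At 8 h the median difference was −0.49, with 37 of 40 members below 0, and no member passed (9 at an unadjusted p under 0.05, with 0.413% of all genes called). With the block Nop56 passed, at −0.97 ± 0.218 (adjusted p = 0.0487), where 0.484% of all genes were called lower. The 8 h difference was added after the data had been seen and rests on the single AtT-20 array at 8 h, assumed to vary like the other groups. That array is of the low run, so the fit without the block mixes run with time in AtT-20. Without the low-run 8 h array of 3134, Rpp40 passed in it without the block (−1.80, adjusted p = 0.0332).

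Among the subunits of RNA polymerase I, Polr1b, the second largest, fell at 8 h. Its log2 level in 3134 was 8.22 and 8.28 at 0 h (low run first, as in all pairs of values), 7.69 and 8.17 at 2 h, 7.82 and 8.05 at 4 h, then 7.22 and 7.46 at 8 h. Both 8 h arrays were below all 6 others, a change of −0.91 ± 0.204. The AtT-20 arrays lay between 8.12 and 8.78, with the 8 h array the lowest. Polr1a, the largest subunit and the catalytic core together with Polr1b, changed by −0.46 ± 0.208 and did not pass. Polr1c, which RNA polymerase I shares with RNA polymerase III, was at 0.22 ± 0.231 and higher than at 0 h in both runs.

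Nop56 and Nop58 are the paired core proteins of the box C/D snoRNPs, which guide methylation of ribosomal RNA. Nop56 stood at 11.06 and 11.00 at 0 h, 10.69 and 10.98 at 2 h, 10.85 and 10.80 at 4 h, then 10.19 and 10.14 at 8 h. The runs nearly met at 8 h, both below all earlier arrays, and the fall of −0.865 ± 0.150 left 54.9% of the 0 h level. In AtT-20 Nop56 ran from 11.31 to 11.56, with the 8 h array the highest. Nop58 in 3134 was at 10.81 and 11.06 at 0 h, 10.69 and 10.72 at 2 h, 10.54 and 10.64 at 4 h, then 10.00 and 10.26 at 8 h. Each run of Nop58 went down at every step, and its 8 h change of −0.81 ± 0.198 passed with the block (SE 0.140), not without. Its AtT-20 arrays lay between 11.16 and 11.70, all above those of 3134. Rrp9, a protein of the U3 snoRNP that takes part in the first cuts of the precursor, was at −0.24 ± 0.149 and did not pass.

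Gar1, Nhp2 and Nop10 are core proteins of the box H/ACA snoRNPs, which guide pseudouridylation and also belong to telomerase. Nhp2 in 3134 was at 7.51 and 7.75 at 0 h, 7.59 and 7.51 at 2 h, 7.75 and 7.47 at 4 h, then 6.97 and 6.59 at 8 h. It fell by 0.85 on the log2 scale (SE 0.193), lay close to its 0 h values at 2 and 4 h, and in the high run ended at the dim-signal threshold. Gar1 had the largest change of all members, −1.22, and the widest spread between runs. Its level was 8.37 and 9.41 at 0 h, 8.05 and 9.30 at 2 h, 7.90 and 8.86 at 4 h, then 6.73 and 8.61 at 8 h. The low run lay below the high run at every time, and Gar1 passed with the block (SE 0.208) and not without it (SE 0.598). In AtT-20 Gar1 was at 8.92 and 9.39 at 0 h, 9.16 and 9.32 at 2 h, 9.06 and 9.835 at 4 h, then 8.53 at 8 h, so that line had its highest array at 4 h and its lowest at 8 h. Nop10 changed by 0.01 ± 0.216.

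Rpp40 is a protein subunit shared by RNase P, which trims transfer RNA precursors, and RNase MRP, which cuts the ribosomal RNA precursor. It was dim in 3134, at 6.60 and 6.57 at 0 h, 6.63 and 6.58 at 2 h, 6.09 and 5.91 at 4 h, then 5.92 and 5.10 at 8 h. The change of −1.07 ± 0.235 is limited by background, since the 4 and 8 h values lay under the threshold of 6.59. Rpp40 was the only member whose 3134 group means at 0, 4 and 8 h were all under that threshold, and it was kept through its other groups. In AtT-20 it was at 6.735 and 6.61 at 0 h, 6.74 and 6.435 at 2 h, 6.29 and 6.525 at 4 h, then 6.99 at 8 h, with the 8 h array the highest.

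Of the 10 small subunit factors, all 10 were below 0 at 8 h, with a median of −0.63. Utp15, a part of the complex that joins transcription to processing of the precursor, was at 8.855 and 8.997 at 0 h, 8.41 and 8.73 at 2 h, 8.59 and 8.46 at 4 h, then 8.12 and 8.08 at 8 h. It fell by 0.83 on the log2 scale (SE 0.166). The AtT-20 arrays lay between 9.33 and 9.62. With the block 6 of the 10 were lower, where 3.6% of all tested genes were. They were Utp15, Utp20 (−0.78), the export factor Rrp12 (−0.77), the late assembly factor Tsr1 (−0.75), Heatr1 (−0.65) and Bysl (−0.58). Imp4, a protein of the U3 particle, was at −0.26 ± 0.313, and Noc4l, Nop14 and Ddx10 ran from −0.61 to −0.18 without passing.

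The 13 large subunit factors had a median of −0.44, with 12 below 0 and none that passed without the block. With it Grwd1 (−0.88), the methyltransferase Nop2 (−0.71), Noc3l (−0.67) and Wdr12 (−0.47) were lower, where 3.6% of all tested genes were. Grwd1 was at 8.56 and 8.15 at 0 h, 8.23 and 8.33 at 2 h, 8.35 and 8.08 at 4 h, then 7.78 and 7.17 at 8 h. Both of its 8 h arrays lay below every earlier one. In AtT-20 Grwd1 was at 9.21 and 9.61 at 0 h, 9.11 and 9.23 at 2 h, 9.24 and 9.12 at 4 h, then 9.38 at 8 h, above all 3134 arrays. Bop1, Pes1 and Wdr12 form 1 complex: Bop1 was at −0.21 ± 0.295, Pes1 at 0.05 ± 0.154 and Wdr12 at −0.47 ± 0.165. The differences between these 3 genes were not tested. Rrs1, which helps to bring 5S ribosomal RNA into the large subunit, has 4 probesets. It was at 7.42 and 7.59 at 0 h, 7.12 and 6.58 at 2 h, 6.52 and 7.75 at 4 h, then 6.78 and 6.62 at 8 h. Which run was higher changed at every step, and its change of −0.80 ± 0.314 passed in neither fit. Its change over the mean of the 3 times, −0.61, passed in neither fit and did pass when the high-run 4 h array was left out without the block (−0.81, adjusted p = 0.0277). In AtT-20 it lay between 7.96 and 8.36, above all 3134 arrays. Nip7 had the largest mean change of 2 and 4 h in AtT-20, 0.33 ± 0.186, which did not pass. In AtT-20 it stood at 8.12 and 8.64 at 0 h, 8.58 and 8.71 at 2 h, 8.71 and 8.86 at 4 h, and 8.13 at 8 h, so the single 8 h array was level with the 0 h array of its run. Its 3134 arrays lay between 7.74 and 8.25.

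Of the 7 nucleolar chaperones and regulators, 6 were below 0 at 8 h, with a median of −0.30. Npm3, a histone chaperone of the nucleoplasmin family that binds nucleophosmin (Npm1), had the highest 8 h change on the list. Its level in 3134 was 8.49 and 8.05 at 0 h, 9.53 and 9.04 at 2 h, 9.16 and 8.83 at 4 h, then 9.15 and 8.56 at 8 h. All treated arrays lay above the 0 h arrays, and the changes of 1.01, 0.72 and 0.58 (SE 0.267) passed with the block (SE 0.141) at each time and in no comparison without it. In AtT-20 Npm3 ran from 8.46 to 8.90. Gnl3 (nucleostemin), a GTP-binding protein of the nucleolus, went the other way, from 10.14 and 10.38 at 0 h through 10.12 and 10.33 at 2 h and 9.69 and 10.25 at 4 h to 9.39 and 9.14 at 8 h. In AtT-20 it lay between 10.10 and 10.69. The 8 h change of Gnl3 in 3134, −0.99 ± 0.236, passed only with the block, as did those of Nolc1 (−0.68), which escorts snoRNPs, and the RNA helicase Ddx21 (−0.64). With the block 3.6% of all tested genes were lower. The abundant nucleolar proteins Ncl (−0.29 ± 0.305) and Npm1 (−0.02 ± 0.288) and the regulator Mybbp1a (−0.30 ± 0.188) did not pass.

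**Figure D3:**
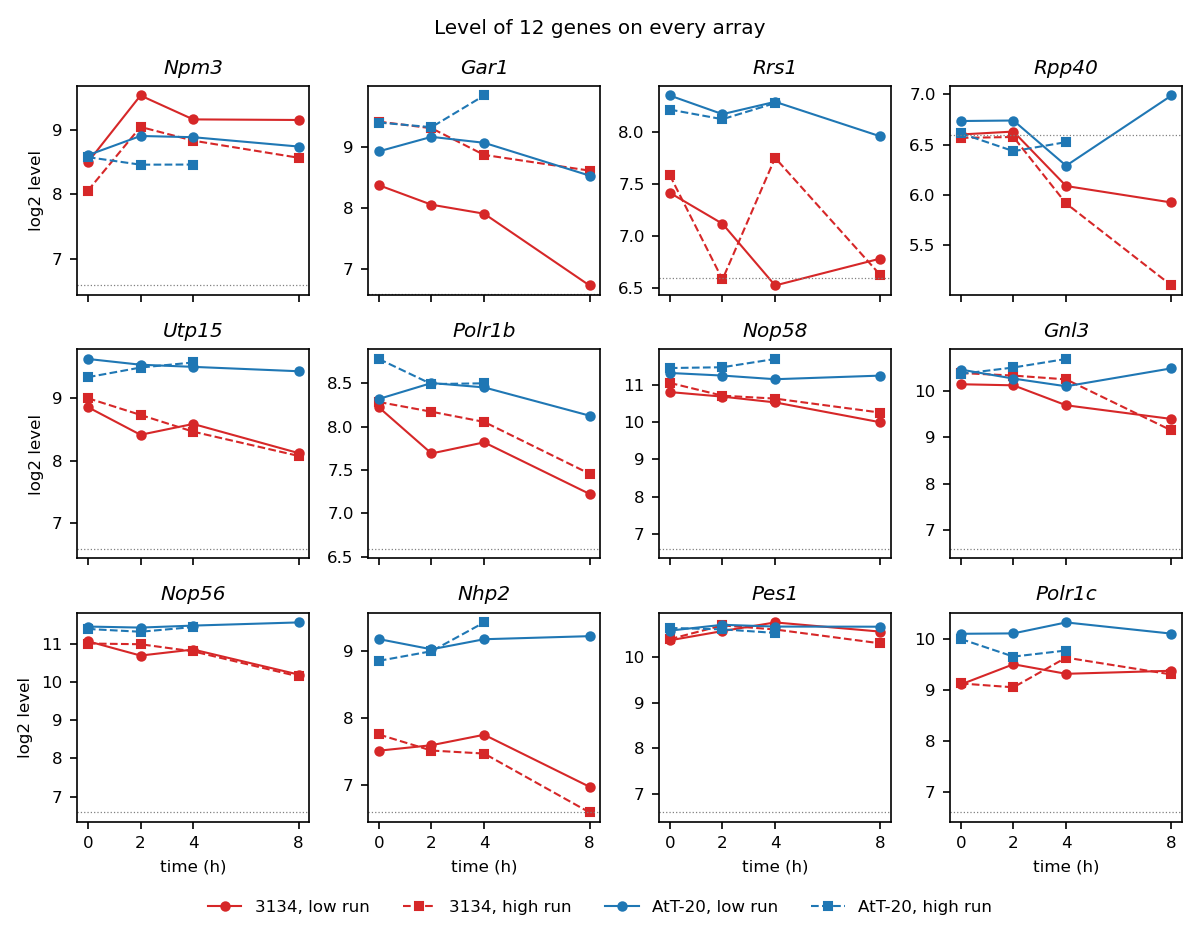
Log2 level (y axis, scaled per panel) against hours of dexamethasone (x axis) for 12 ribosome biogenesis genes on every array, with 3134 in red, AtT-20 in blue, the low run as circles and solid lines and the high run as squares and dashed lines. The dotted line marks the dim-signal threshold of 6.59. Nop56 and Polr1b are lowest at 8 h in both runs of 3134, Npm3 is highest at 2 h, and Pes1 and Polr1c show no such drop.

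The 8 h change was spread over the exons of most members. Of their 658 probesets above the dim-signal threshold, 589 (89.5%) were lower at 8 h than at 0 h in 3134, where 50.8% of 158946 such probesets of all genes were. For Nop56 12 of 12 bright probesets were lower, for Utp15 19 of 19, for Polr1b 22 of 22 and for Heatr1 47 of 49. Other members were mixed, with 2 of 4 lower for Rrs1, 13 of 19 for Bop1, 6 of 12 for Npm1, 6 of 16 for Pes1 and 2 of 7 for Nop10. For Npm3 1 of 6 was lower and for Polr1c 0 of 19. Probesets of 1 gene share its transcript and are not replicates. Their median is the gene's value, so these counts describe the same data as the gene changes.

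Promoters were examined because Myc is known to bind E-boxes in genes of this kind. Whether Myc acts on the members in these cells was not tested. RefSeq windows on build GRCm38.p6, from 250 bases before to 50 bases after the start, were found for 36 of the 40 genes. The E-box CACGTG (a palindrome, so the same on both strands) was in those of 7 genes (19.4%), namely Grwd1, Nop2, Tsr1, Utp20, Imp4, Mybbp1a and Pes1, against 12.1% of 8078 tested genes with a window. The GC box GGGCGG, on either strand, was in 77.8% of the members and 71.4% of the tested genes, the motif AGAACA, a part of the glucocorticoid response element, in 13.9% and 14.2%, and the TATA box TATAAA in 2.78% and 8.63%. The windows printed are those of the 4 genes that hold the E-box and were lower at 8 h with the block. Grwd1 came from the rule for named genes and Nop2, Tsr1 and Utp20 were added after their values had been seen. They read 5′ to 3′ along the gene's strand, with the E-box in capitals.

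Grwd1 promoter, chr7:45830740-45831039, minus strand: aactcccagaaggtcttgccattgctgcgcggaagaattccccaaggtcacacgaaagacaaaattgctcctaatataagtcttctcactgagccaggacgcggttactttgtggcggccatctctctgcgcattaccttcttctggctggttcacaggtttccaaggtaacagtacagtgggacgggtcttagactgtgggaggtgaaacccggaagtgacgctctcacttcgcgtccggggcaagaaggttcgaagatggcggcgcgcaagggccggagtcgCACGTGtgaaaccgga

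Nop2 promoter, chr6:125131633-125131932, plus strand: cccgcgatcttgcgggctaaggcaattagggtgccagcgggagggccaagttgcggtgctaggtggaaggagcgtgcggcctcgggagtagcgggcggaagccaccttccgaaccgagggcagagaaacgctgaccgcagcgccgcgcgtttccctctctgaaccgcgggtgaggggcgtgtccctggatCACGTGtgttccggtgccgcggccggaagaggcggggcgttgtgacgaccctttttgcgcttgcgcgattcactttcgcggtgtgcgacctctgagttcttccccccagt

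Tsr1 promoter, chr11:74897830-74898129, plus strand: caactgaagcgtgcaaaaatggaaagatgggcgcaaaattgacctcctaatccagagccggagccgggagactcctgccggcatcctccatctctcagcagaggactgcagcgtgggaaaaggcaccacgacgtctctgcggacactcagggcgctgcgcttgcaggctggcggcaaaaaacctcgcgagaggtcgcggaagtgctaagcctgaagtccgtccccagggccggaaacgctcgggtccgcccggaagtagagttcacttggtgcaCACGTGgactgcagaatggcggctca

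Utp20 promoter, chr10:88826765-88827064, minus strand: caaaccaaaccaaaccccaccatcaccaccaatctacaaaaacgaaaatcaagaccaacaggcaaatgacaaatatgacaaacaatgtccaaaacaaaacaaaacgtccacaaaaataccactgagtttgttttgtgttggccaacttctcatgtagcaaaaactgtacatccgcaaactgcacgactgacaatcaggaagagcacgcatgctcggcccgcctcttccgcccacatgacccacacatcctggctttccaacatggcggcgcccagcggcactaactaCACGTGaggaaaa

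The E-box starts 34 bases after the start in Grwd1, 60 before it in Nop2, 24 after it in Tsr1 and 37 after it in Utp20. The 8 h change had a median of −0.71 in the 7 members with the E-box and −0.58 in the 29 without. It was below 0 for 6 of those with the E-box (85.7%) and 26 of those without (89.7%). Among all tested genes the medians were −0.05 with the E-box (981 genes, 57.3% below 0) and −0.01 without (7097 genes, 51.6% below 0). Pes1, with an E-box 2 bases after its start, changed by 0.05. A match in a window is a description of its letters and not a measured binding site.

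Other genes of the pathway, from lists that the members are not on, had medians nearer to 0. Members and lists were all chosen with earlier results of these data known, so nothing is read from the gap between their medians. Of all tested genes, 0.544% were called lower at 8 h in 3134 without the block and 3.6% with it. Of 37 further small subunit factors, 29 were below 0 at 8 h in 3134, with a median of −0.26, and Nat10, the acetyltransferase of small subunit RNA, fell by 0.81 on the log2 scale (SE 0.158, adjusted p = 0.0208). With the block 7 were lower, among them Dimt1 (−1.03), Ltv1 (−0.76) and Pdcd11 (−0.68). Of 39 further large subunit factors, 37 were below 0, with a median of −0.29, and Rrp15 fell by 1.08 on the log2 scale (SE 0.174, adjusted p = 0.006293). With the block 4 were lower, Rrp15, the remodelling ATPase Mdn1 (−0.81), Pum3 (−0.67) and the export adaptor Nmd3 (−0.63). Among 31 further genes of RNA polymerase I and III, of RNase P and MRP and of snoRNP assembly, 22 were below 0 with a median of −0.17, none passed, and with the block 4 did, including the RNA polymerase III subunits Polr3e (−0.80) and Polr3a (−0.55). Ubtf, the factor that opens ribosomal DNA for RNA polymerase I, was at −0.37 ± 0.165 and did not pass, and Rrn3 had no value under its name.

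Transcripts of the ribosomal proteins themselves stood near 0. Of 30 tested cytosolic ribosomal protein genes, 11 were below 0 at 8 h, the median was 0.05, and none passed in either fit. On the median-centred scale that median was −0.05, below 0, and on both the median-centred and the deposited scale it lay 0.02 above the median of all genes. Of 17 genes of nucleotide synthesis, 12 were below 0 (median −0.14) and none passed without the block. With it the purine enzyme Ppat (−0.91) and the CTP synthase Ctps (−0.75) were lower and Prps2 (0.73), which makes the activated ribose, was higher. Of all tested genes, 3.6% were lower and 4.3% higher with the block.

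In the Myc network, 4 of 11 genes were below 0 at 8 h, and Mxd4, a partner of Max that opposes Myc, rose. Mxd4 was at 8.80 and 8.31 at 0 h, 9.13 and 8.61 at 2 h, 9.75 and 8.82 at 4 h, then 10.12 and 9.74 at 8 h in 3134, and it increased in both runs at each step. The 8 h change was 1.37 ± 0.289 (limma adjusted p = 0.0303), where 1.64% of all tested genes were called higher. In AtT-20 it lay between 7.38 and 7.66. Myc itself was at 10.97 and 11.07 at 0 h, 10.55 and 10.46 at 2 h, 10.59 and 10.53 at 4 h, then 10.70 and 10.56 at 8 h. All 6 treated arrays were below both 0 h arrays, and changes of −0.52, −0.46 and −0.39 (SE 0.423, or 0.154 with the block) passed in neither fit. The SE rests on 1 spread over both lines, and in AtT-20 Myc ran from 5.18 to 6.88, around the dim-signal threshold.

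**Figure D4:**
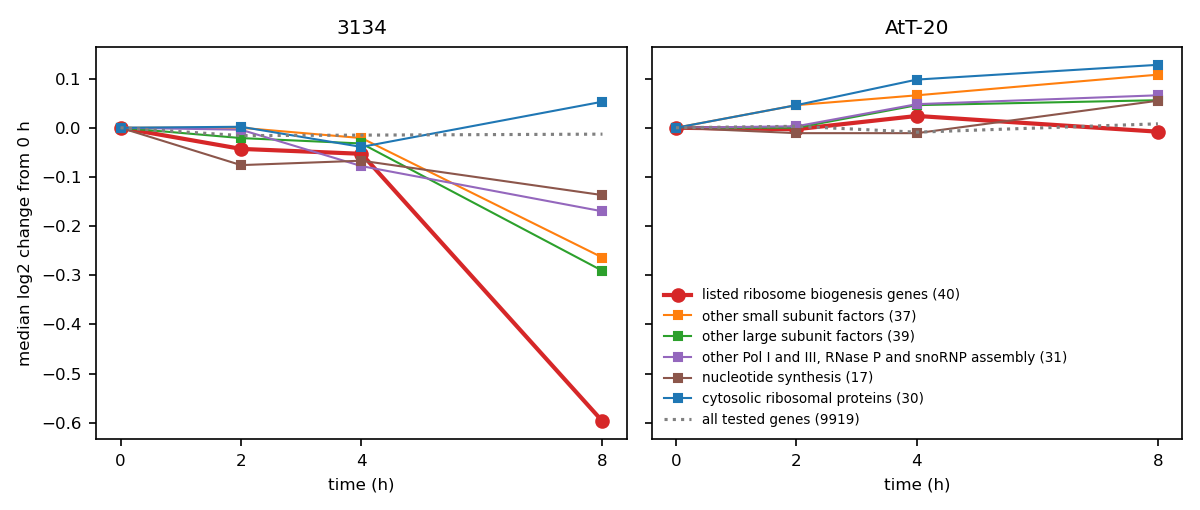
Median log2 change from 0 h (y axis) against hours of dexamethasone (x axis) in 3134 (left) and AtT-20 (right) for the 40 listed ribosome biogenesis genes (thick red), other gene lists of the pathway and all 9919 tested genes (dotted). In 3134 at 8 h the listed genes are at −0.60, the other subunit factors at −0.26 and −0.29 and the ribosomal proteins at 0.05. All lists were chosen with earlier results of these data known. The AtT-20 value at 8 h is from 1 array of the low run, set against the 0 h arrays of both runs.

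Before hormone the lines differed. The list does not follow this comparison, but it shares the 3134 arrays at 0 h with the changes over time that were known, so it is given as a description. At 0 h, 17 of 40 members were lower in 3134 than in AtT-20 (42.5%) and none was higher, in a comparison in which 30.3% of all tested genes were lower and 24.3% higher. The median difference was −0.51, against −0.10 for all tested genes, and the 3134 arrays lay below both AtT-20 arrays for 29 members (42.6% of all genes). Rrp9 differed most, at 8.28 and 8.20 in 3134 and 9.86 and 9.67 in AtT-20, a difference of −1.52 ± 0.149 (adjusted p = 2.753e-06). Next came Nhp2 (−1.39, adjusted p = 6.401e-05), Imp4 (−1.37, adjusted p = 0.002686) and Rrp12 (−1.31, adjusted p = 0.0004322). Nop10 (−1.17), Grwd1 (−1.05), Nop2 (−1.04) and Polr1c (−0.94) completed the 8 largest that passed. Of these 8, Rrp9, Imp4, Nop10 and Polr1c stood at 84.8%, 83.6%, 101% and 117% of their 0 h level at 8 h in 3134. Nhp2, Rrp12, Grwd1 and Nop2 stood at 55.3%, 58.7%, 54.3% and 61.2%. The 0 h arrays of the lines did not overlap for any of these 8 genes. The values above 0, Ncl at 0.45 ± 0.305, Npm1 at 0.31 ± 0.288 and Utp20 at 0.23 ± 0.225, did not pass.

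With the block 25 members were lower at 0 h and none higher, where 37.2% of all genes were lower and 29.6% higher, and 10 passed when the 3134 array of the low run was left out of the fit without the block. The scale matters for this comparison. With the block and the values as deposited, the all-gene median went from −0.10 to 0.23, 7 members were lower and 2, Ncl and Utp20, were higher, and Ebna1bp2 and Noc3l changed sign. Relative to the median of all genes the members' median was −0.42 on the quantile scale and −0.38 on the other scales. Other small subunit factors had a median difference of −0.49 and cytosolic ribosomal proteins one of 0.25.

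**Figure D5:**
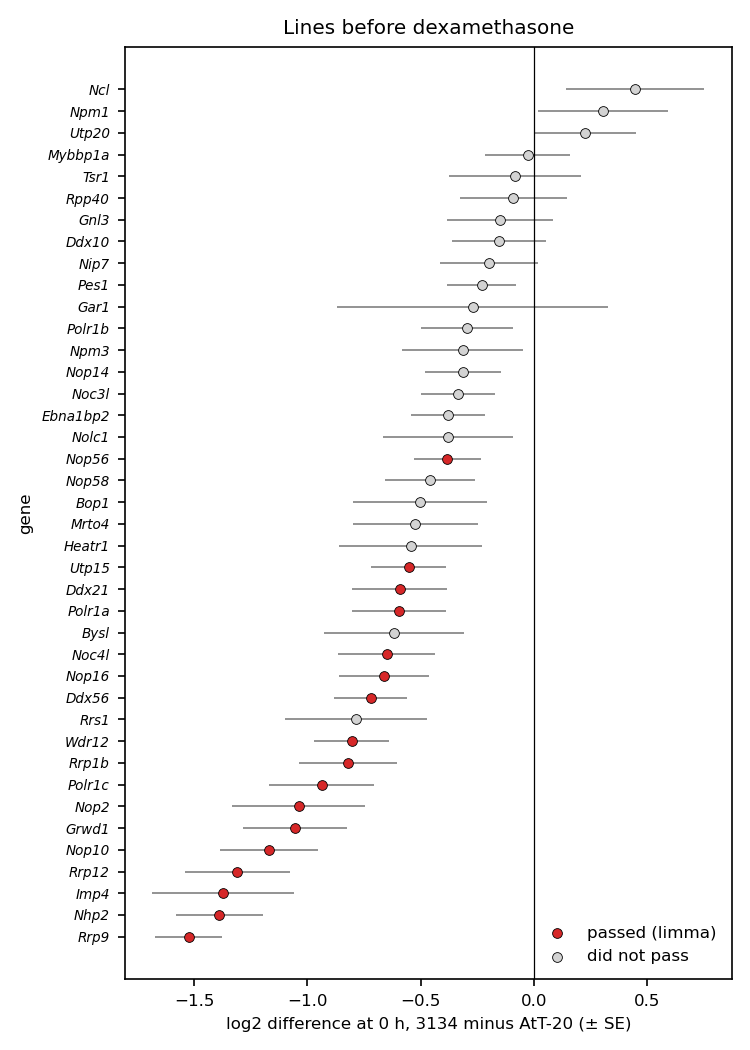
Log2 difference between the lines at 0 h, 3134 minus AtT-20 (x axis, with the standard error as bars), for each of the 40 ribosome biogenesis genes (y axis), with 2 arrays per line. Red points mark the 17 genes that passed the limma test, all of them lower in 3134; Ncl, Npm1 and Utp20 lie above 0 and did not pass.

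The use of probesets within genes was compared between all 3134 and all AtT-20 arrays, to ask whether the lines make different exons of a member. Limma's diffSplice found unequal use in 19 of 40 members (47.5%), where 54.1% of 11433 genes with enough bright probesets passed. In Wdr12 (adjusted p = 1.91e-21) 1 probeset was at 6.75 in 3134 and 10.04 in AtT-20, a gap of −3.29, while the median gap over the gene's 17 probesets was −1.03. In Bop1 (adjusted p = 8.2e-12) 1 probeset was at 7.54 and 9.98 where the gene's median gap was −0.52. In Heatr1 (adjusted p = 4.77e-10) 3 of 49 probesets were higher in 3134, the first of them at 6.61 against 5.40, while the median gap was −0.61. In Nop14 (adjusted p = 1.62e-07) 1 probeset was at 9.02 and 10.44 with a median gap of −0.39. The probeset given for each of these 4 genes is the one with the smallest p, and others also departed from their gene. At an unadjusted p under 0.05 there were 5 of 17 in Wdr12, 3 of 19 in Bop1, 4 of 49 in Heatr1 and 8 of 18 in Nop14. A sequence difference between the mouse strains of the lines under the probes was not tested. With the block 27 members passed, and 74.4% of all genes, and with the 0 h arrays alone 5 members, and 28.6% of all genes.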

How the data were processed

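The deposited values are log2 expression per exon probeset. RMA in Affymetrix Expression Console made them, per the submitters' processing notes; no version or setting was found. Of 228090 probesets, 207232 had 1 gene symbol in the platform annotation and were used. Of 16207 symbols, 2111 were updated and 41 kept as given, with the RefSeq genes of GRCm38.p6. Since array medians differed, the 15 arrays were quantile normalised. A gene's value was the median over its probesets, with at least 3. Genes whose highest group mean reached the 40th percentile, log2 6.59, were tested with limma 3.58.1 (lmFit, eBayes, 2-sided) in R 4.3.3, with 1 spread per gene over all 15 arrays and Benjamini-Hochberg adjustment over 9919 genes at 0.05. An SE is limma's for the difference, and the median SE of a member was 0.216 (0.264 for AtT-20 at 8 h). The number of arrays limits the precision.

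Runs were taken from serial numbers in the titles. Deviations from group means correlated by 0.491 to 0.591 between same-run arrays of a line (9 pairs). Between low-run arrays of different lines they correlated by 0.276 to 0.39 (12 pairs). The runs were therefore used to pair arrays in the per-run changes and in the fit with the block, while the main fit had no term for run. The members and all gene lists were chosen with earlier results of these data known. Values on every 3134 array, with those of AtT-20 or their range, are given for the member with the largest mean change in each role, and the 8 largest over all members in 3134, and on every AtT-20 array for the 4 largest there, plus Nop56 and Nhp2, chosen after their values were seen. Motifs were counted in Python 3.11.15 with pandas 2.3.3. Scripts were tested on simulated data with known changes. Alternatives were the run as a block, other scales, no filter, the mean over probesets, and each array left out. The highest correlation between arrays was 0.986, so none was taken for a repeat.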

Additional observations from a re-analysis of the deposited data

How the results depend on the processing

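Counts are of members that passed. Where the share of all tested genes is not given above for the same fit, nothing is read from a count. With the replicate block (the run within each line) 1 passed at 2 h, 1 at 4 h and 20 at 8 h in 3134, 6 for the mean of the 3 times, and 1 for the difference of responses over 2 and 4 h. On the median-centred scale with the block, added after the data were seen, these were 1, 1, 23, 5 and 1, and on the deposited scale with the block 1 at 2 h, 1 at 4 h (Gar1, lower), 25 at 8 h, 8 for the mean and 9 for the lines at 0 h, where Ebna1bp2 turned to 0.007 and Noc3l to 0.034. At 8 h in 3134, 1 passed without the dim filter and 11 with the mean over probesets. Probeset use on 0 h arrays only gave 5. Leaving out 1 array at a time gave 0 to 1 at 8 h, 0 to 1 for the mean of the 3 times, 10 to 14 for the lines at 0 h, 0 to 1 for the 8 h difference of responses, and 0 for 2 h, 4 h and 8 h against 4 h in 3134, for the AtT-20 comparisons and for the difference over 2 and 4 h, with the AtT-20 8 h array always kept because it has no replicate. The member that passed was Rpp40 without the low-run 8 h array in all 3 such cases, and Rrs1 for the mean of the 3 times without the high-run 4 h array. The block also gave 25 for the lines at 0 h, 27 for probeset use and 1 for the 8 h difference of responses (2 on the deposited scale), and changed no count of members in the AtT-20 time comparisons. The members' 8 h median stayed below 0 in each alternative, from −0.98 on the deposited scale with the block to −0.39 without the low-run 8 h array; the cause of these moves was not tested. Limits are the 2 arrays per group, 1 at 8 h in AtT-20, no untreated arrays at 2, 4 or 8 h, replicates of unstated origin, and signal near background for Rpp40, so that a member that did not pass is not shown to be unchanged.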
